A study of Homo sapiens with 29 samples.

Results

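The protein kinase genes were chosen by name: the 4592 listed genes were matched to current symbols, and those whose symbol follows the naming pattern of 8 kinase groups were kept, which gave 88 genes. The groups are the MAP kinase cascade with the TAO kinases (25 genes), the PRK, ROCK and RPS6K kinases (12), the cyclin-dependent and CDK-like kinases (11), the STK and LATS kinases (11), the CaM kinases and MARK kinases (9), the NEK and WNK kinases (9), the casein, DYRK and HIPK kinases (6), and the EPH and FGF receptors (5). CSNKA2IP also matches the pattern, although by its name it encodes a protein that interacts with a kinase and is no kinase itself. DRB/TTchem-seq was done in HEK293, an established human embryonic kidney cell line. All cells carried a lentivirus for 4 days, with either the control hairpin (shCtrl) or a hairpin against THOC5 (shTHOC5), a subunit of the THO complex that couples transcription to mRNA processing and export. All cells were also kept in 100 μM DRB for 3.5 h, which blocks the kinase CDK9 and holds RNA polymerase II (Pol II) near promoters. They were harvested when 10, 20, 30 or 40 min had passed since washout, with newly made RNA labelled by 1 mM 4SU, in 1 library per hairpin and time, 8 in all. There are no replicates, so the differences below are between these libraries, and the spread between cultures is unknown.

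Protein kinases move phosphate from ATP onto serine, threonine or tyrosine residues of other proteins. In the MAP kinase cascade a MAP3K, which a MAP4K can activate, activates a MAP2K, which activates a MAPK. The signal ends at transcription factors and other targets. CDK12 and CDK13 phosphorylate the C-terminal domain of Pol II during elongation, and CDK8 and CDK19 belong to the Mediator complex. ROCK kinases act on the actin cytoskeleton, and several STK kinases and the LATS kinases belong to or surround the Hippo pathway.

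The measurement is the wave peak, the position at which the labelled RNA was called to peak in a gene at each release time. The call is made inside a window that opens 2 kb before the transcription start site (TSS) and closes 120 kb after it. Positions are in kb from the TSS, and -2.0 kb therefore means that the call stood at the first position of the window. The deposited rate of each gene, in kb/min, is the least-squares slope over 5 points, the 4 wave peaks counted from the window start and a point at 0 kb and 0 min. A gene's peaks are called in order when each later peak lies farther downstream. Coverage is the labelled RNA counted for the gene in RPM (rpm) of its own series, summing to 1000000 over the listed genes. The study's methods filter genes on their total coverage over the window, from 2 kb before to 120 kb after the TSS. Read so, coverage includes neighbours inside the window and leaves out the parts of a gene past 120 kb. How many reads each library held is unknown. THOC5 itself is not listed, so its depletion was not checked here. Of the HEK293 kidney markers, PAX2 had 57.7 rpm in shCtrl and 12.3 rpm in shTHOC5, and PAX8 6.53 and 4.00 rpm. Markers of other cell types were low except the liver gene CPS1, with 86.7 and 124 rpm: PTPRC, VWF and MYOM1 had 3.07 to 7.41 rpm in shCtrl and 9.94 to 16.3 rpm in shTHOC5. VWF, with 7.41 and 16.3 rpm, was above PAX8 in both series, and MYOM1, with 12.2 rpm in shTHOC5, was near PAX2 there. These markers therefore do not separate the cell types. The markers EYA1, SYT1 and ALB are not listed. The libraries come from bulk cultures, in which fewer transcribing cells and less RNA per cell cannot be told apart.

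The promoters below are those of MAP3K2, STK24 and STK35, which the authors' filters kept in shCtrl, of MAP4K5, whose RefSeq start is far from the start its window was built on, and of ERCC3, the gene that lies next to MAP3K2 on the same strand. Each runs from 250 bases before to 30 bases after a RefSeq start on GRCh38.p14, all read 5′ to 3′ on the strand of the gene. MAP3K2 lies at chr2:127388436-127388715 (minus strand), ERCC3 at chr2:127294115-127294394 (minus), MAP4K5 at chr14:50532540-50532819 (minus), STK24 at chr13:98577078-98577357 (minus) and STK35 at chr20:2101577-2101856 (plus). Capitals mark each CCAAT and each GGGCGG as well as the reverse complements ATTGG and CCGCCC. The TATA box motif, TATAAA, was searched in the same way on both strands and is in none of the 5 windows.
MAP3K2: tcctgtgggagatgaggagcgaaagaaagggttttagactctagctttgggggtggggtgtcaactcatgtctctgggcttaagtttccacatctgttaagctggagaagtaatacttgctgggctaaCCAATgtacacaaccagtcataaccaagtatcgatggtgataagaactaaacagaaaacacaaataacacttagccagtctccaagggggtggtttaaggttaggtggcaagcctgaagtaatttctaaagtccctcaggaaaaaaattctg
ERCC3: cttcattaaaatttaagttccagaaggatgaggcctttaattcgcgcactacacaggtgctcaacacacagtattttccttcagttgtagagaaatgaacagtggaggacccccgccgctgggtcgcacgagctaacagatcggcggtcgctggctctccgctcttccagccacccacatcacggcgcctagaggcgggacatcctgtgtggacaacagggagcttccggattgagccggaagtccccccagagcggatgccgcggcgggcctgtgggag
MAP4K5: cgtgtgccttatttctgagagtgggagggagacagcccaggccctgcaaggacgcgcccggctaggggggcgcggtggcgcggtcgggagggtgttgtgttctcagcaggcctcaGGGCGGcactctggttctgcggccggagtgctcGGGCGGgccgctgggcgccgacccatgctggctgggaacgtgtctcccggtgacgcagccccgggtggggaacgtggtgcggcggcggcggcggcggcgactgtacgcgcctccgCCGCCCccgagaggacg
STK24: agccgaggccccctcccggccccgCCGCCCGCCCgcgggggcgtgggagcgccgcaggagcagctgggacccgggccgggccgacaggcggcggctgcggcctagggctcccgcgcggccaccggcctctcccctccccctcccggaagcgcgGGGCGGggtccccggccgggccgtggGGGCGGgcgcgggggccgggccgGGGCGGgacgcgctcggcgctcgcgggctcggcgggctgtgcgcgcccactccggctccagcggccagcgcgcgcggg
STK35: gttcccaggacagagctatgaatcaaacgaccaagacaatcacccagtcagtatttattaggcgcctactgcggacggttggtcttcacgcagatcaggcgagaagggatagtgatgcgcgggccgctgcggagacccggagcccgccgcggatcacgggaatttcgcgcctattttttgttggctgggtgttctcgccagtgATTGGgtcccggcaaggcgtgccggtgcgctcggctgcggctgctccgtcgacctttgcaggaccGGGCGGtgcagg
The MAP3K2 window is 43.6% G or C with 2 CG pairs, whereas that of ERCC3 is 57.9% with 19 CG pairs, that of MAP4K5 73.9% with 35, that of STK24 87.1% with 49 and that of STK35 61.4% with 28. GGGCGG or CCGCCC is in 44.1% of all 35116 promoter windows of this length and in 60.7% of the 122 windows of the kinase genes. CCAAT or ATTGG is in 33.6% and 26.2%, and TATAAA or TTTATA in 11.2% and 11.5%. In the STK24 window 2 of the 5 marked GC matches overlap. Of the 88 genes, 75 have an entry in the RefSeq promoter table.

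Wave peaks stood in order in few kinase genes of shCtrl cells and in many more of shTHOC5 cells. In shCtrl 14 of 88 (15.9%) had their 4 peaks in order, against 13.2% of all listed genes. In shTHOC5 40 of 88 (45.5%) did, against 31.3% of all listed genes. The 12 genes in order in both series (all listed genes 9.23%) were NEK7, EPHA4, MAP3K2, HIPK2, HIPK3, STK38L, CDK8, STK24, CDKL1, CDK12, ROCK1 and STK35. Another 28 genes were in order in shTHOC5 only (31.8%, all listed genes 22.1%), 2 in shCtrl only, MAP2K4 among them (2.27%, all listed genes 4.01%), and 46 in neither series. Leaving out the 10, 20, 30 or 40 min time, which asks for fewer steps in order, gave 27, 23, 25 or 21 genes there and 49, 46, 45 or 46 in shTHOC5.

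The authors' own filters kept 5 kinase genes in shCtrl (5.68%, all listed genes 4.92%), among them CDKL1, MAP3K2, STK24 and STK35. They kept 12 in shTHOC5 (13.6%, all listed genes 10.0%): CAMK2G, CDK17, CDK6, CDKL1, MAP3K2, MAP4K5, MAPK8, MARK2, MARK3, ROCK1, ROCK2 and STK24. CDKL1, MAP3K2 and STK24 were kept in both (3.41%, all listed genes 2.40%).

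The median wave peak of the 88 genes in shCtrl lay at 5.86, 5.31, 11.0 and 9.70 kb at 10, 20, 30 and 40 min, so it did not advance steadily. In shTHOC5 it lay at -0.24, 4.37, 6.96 and 9.44 kb, farther downstream at each time. Over all listed genes the medians were 14.7, 7.67, 17.3 and 17.5 kb in shCtrl and 0.579, 4.35, 6.96 and 10.8 kb in shTHOC5. At 10 min 33 kinase genes (37.5%, all listed genes 41.8%) had their peak over 40 kb from the TSS in shCtrl and 19 (21.6%, all listed genes 32.2%) in shTHOC5. At 40 min there were 20 (22.7%, all listed genes 39.9%) and 23 (26.1%, all listed genes 36.2%). At 10 min 28 genes (31.8%, all listed genes 33.8%) stood at the window start in shCtrl and 43 (48.9%, all listed genes 47.5%) in shTHOC5. From 10 to 20 min the called peak jumped upstream by over 40 kb in 18 genes of shCtrl (20.5%, all listed genes 14.3%), for example from 67.9 to 10.3 kb in DYRK1A, and in 3 genes of shTHOC5 (3.41%, all listed genes 8.30%), EPHB2, FGFR1 and NEK10.

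**Figure D1:**
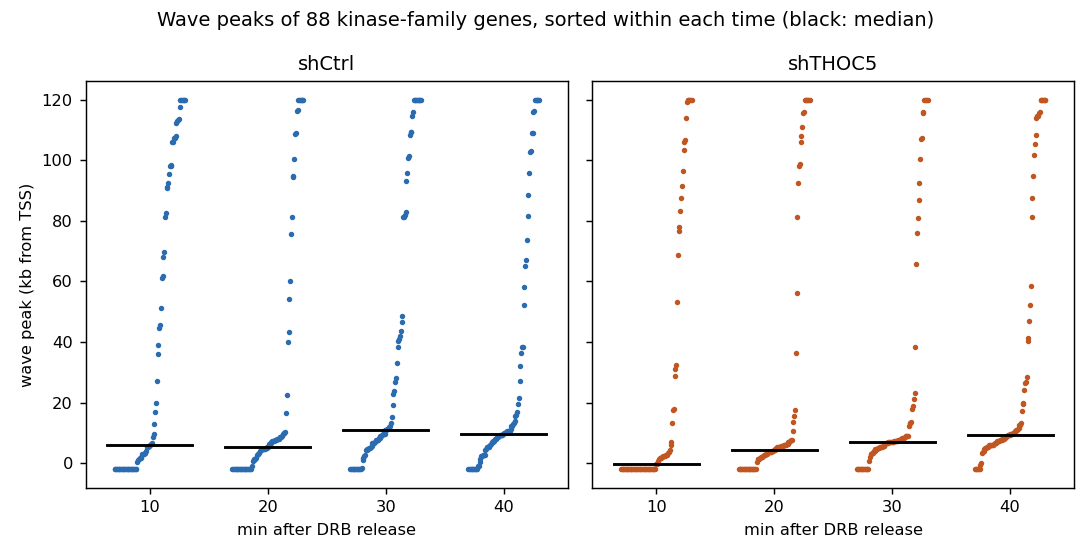
Wave peak of each of the 88 genes (y axis, kb from the TSS) against the release time (x axis, min) in shCtrl (left) and shTHOC5 (right), 1 library per time. Points are genes sorted by position within each time and black lines are medians, which run 5.86, 5.31, 11.0 and 9.70 kb on the left and -0.24, 4.37, 6.96 and 9.44 kb on the right.

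Compared gene by gene, the call lay closer to the TSS in shTHOC5 in 42 of 88 genes at 10 min (47.7%, all listed genes 45.9%), in 41 at 20 min (46.6%, all listed genes 48.8%), in 52 at 30 min (59.1%, all listed genes 54.2%) and in 44 at 40 min (50.0%, all listed genes 49.1%). It was farther from the TSS in 18, 22, 25 and 35 genes, which is 20.5%, 25.0%, 28.4% and 39.8% of them against 20.8%, 26.0%, 27.4% and 35.5% of all listed genes. In the other genes the call was at the same position in both series. These shares lie near those of all listed genes and do not set the kinase genes apart. Over the 12 genes in order in both series the median difference was -0.246, -0.754, -0.653 and -0.849 kb at the 4 times, and single genes ranged from -7.24 to 4.35 kb at 10 min and from -62.8 to 18.3 kb at 40 min. Over the 424 listed genes in order in both series the median differences were -0.847, -1.22, -1.31 and -1.69 kb.

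Over the 4 times together, with the release time as a block in a limma fit across all 4592 genes, no kinase gene differed between the hairpins past an adjusted p of 0.05 (0 of 88, all listed genes 0.0871%), and the lowest adjusted p was 0.601. At an unadjusted p under 0.05 there were 4 kinase genes (4.55%, all listed genes 7.99%). They were MAP3K2, with a mean difference over 4 time-matched pairs of -1.40 ± 0.34 kb (limma's moderated SE), CDKL1, with -3.81 ± 1.19 kb, MAP3K1, with -80.2 ± 25.1 kb, and STK35, with -11.0 ± 3.51 kb. MAP3K1, 80.6 kb wide, had 95.4, 120, 120 and 120 kb in shCtrl and -2.0, 7.56, 8.85 and 120 kb in shTHOC5. Its 95.4 kb call lies in the neighbour SETD9, and its calls at 120 kb, the window end, lie in MIER3. The MAP3K1 difference thus sets calls past its own end mostly against calls near its TSS. The error in this fit starts from how far the difference varied from time to time, since no time has a second library. Moderation then draws it toward a value estimated from all 4592 genes. Calls that jump between the window start and a far position widen it. PRKD3, a protein kinase D, had 92.5, 94.4, 93.2 and 4.83 kb in shCtrl and -2.0, 3.83, 5.2 and 94.7 kb in shTHOC5. It passed without the 40 min time (adjusted p = 0.0314 in limma) but had an adjusted p of 0.624 with it. The gene is 74.3 kb wide, so its calls from 92.5 to 94.7 kb lie past its own end. That of shCtrl at 10 min lies in NDUFAF7, and those of shCtrl at 20 min and shTHOC5 at 40 min lie in CEBPZ.

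MAP3K2, a MAP3K that activates the MEK5 and JNK branches, shows what a call can measure. The gene spans chr2:127298668-127388465 on the minus strand of GRCh38 (GENCODE release 44), 89.8 kb. Its peaks were called at 98.0, 100.4, 101.4 and 102.8 kb in shCtrl and at 96.4, 98.6, 100.4 and 101.5 kb in shTHOC5, so all 8 lie beyond its own end. All 8 lie inside ERCC3 (chr2:127257290-127294166, minus strand), which encodes a helicase of the transcription factor TFIIH and is not among the listed genes. Counted from the ERCC3 start, they stood at 3.66, 6.13, 7.13 and 8.47 kb in shCtrl and at 2.14, 4.33, 6.10 and 7.25 kb in shTHOC5. The shTHOC5 peak was nearer that start at each of the 4 times.

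The deposited rates of MAP3K2 are 2.13 kb/min in shCtrl and 2.11 kb/min in shTHOC5, for a line that starts at 0 at the MAP3K2 window. The slope over the 4 times alone was 0.154 kb/min in shCtrl and 0.171 kb/min in shTHOC5. With the point at 0 min placed at the ERCC3 start it was 0.204 and 0.185 kb/min. The order of the 2 series thus depends on whether a point at 0 min is used.

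**Figure D2:**
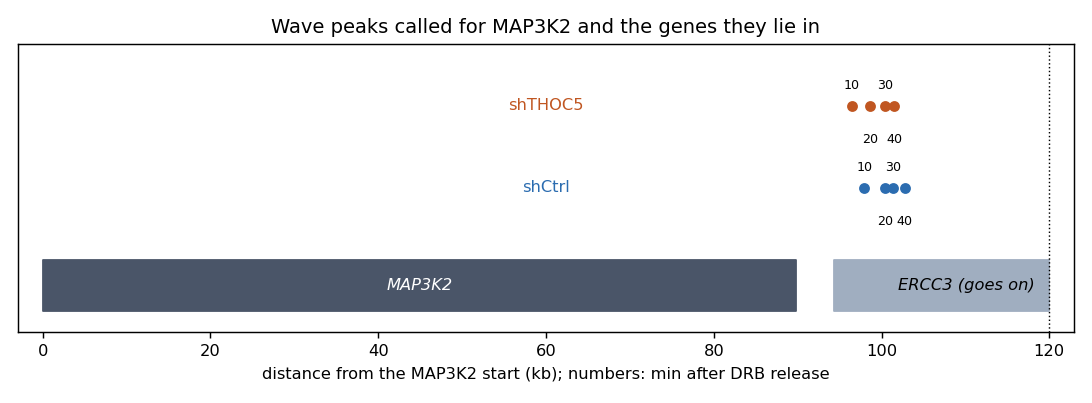
Wave peaks called for MAP3K2 along the distance from its start (x axis, kb), in shTHOC5 (top row) and shCtrl (middle row), with the time of each library in min beside its point. Bars show MAP3K2, 89.8 kb long, and the ERCC3 gene up to the window end at 120 kb (dotted line), and all 8 points stand over ERCC3.

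CDKL1, a CDK-like kinase linked to cilia, also had all 8 peaks beyond its own end. It spans chr14:50326265-50416461 on the minus strand, 90.2 kb, and its peaks stood at 106, 108.8, 109.2 and 115.8 kb in shCtrl and at 103.4, 106, 106.9 and 108.3 kb in shTHOC5. The shTHOC5 peak was nearer the TSS at every time. The deposited CDKL1 rates were 2.39 kb/min in shCtrl and 2.24 kb/min in shTHOC5, and the slopes over the 4 times alone were 0.297 and 0.155 kb/min.

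MAP4K5, which acts at the top of the MAP kinase cascade, had peaks far inside its own gene, at 36.1, 40.0, 38.3 and 38.5 kb in shCtrl and at 32.5, 36.4, 38.5 and 40.2 kb in shTHOC5. All 8 lie in its own introns. The RefSeq start printed above is 28557 bases downstream of the GENCODE start from which the window runs. Counted from the RefSeq start, the peaks stood at 7.50, 11.5, 9.74 and 9.91 kb in shCtrl and at 3.99, 7.87, 9.93 and 11.6 kb in shTHOC5. The deposited rates of 0.832 and 0.903 kb/min compare with 0.221 and 0.292 kb/min for a line through 0 at the RefSeq start. Of the 64 kinase genes with a RefSeq entry and the GENCODE width, 8 have no RefSeq start within 1 kb of the GENCODE start: CAMKK2, CDK15, CDKL1, MAP4K5, MAPK6, MARK4, ROCK2 and TAOK3. For STK24 the nearest RefSeq start is 833 bases downstream, and for STK35 and MAP3K2 the 2 starts are the same base.

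**Figure D3:**
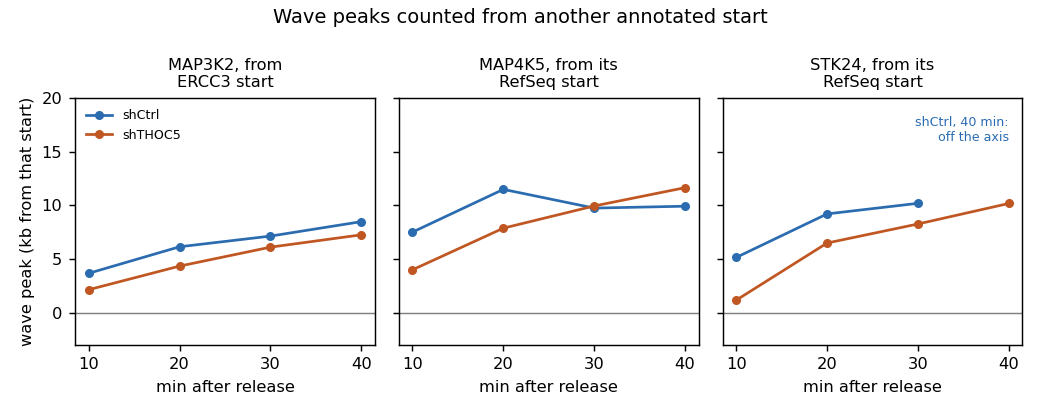
Wave peaks of MAP3K2 (y axis, kb) counted from the ERCC3 start, and of MAP4K5 and STK24 counted from their own nearest RefSeq starts, at 10 to 40 min after DRB release (x axis), 1 library per point. So counted, the shTHOC5 peaks run from 1.16 to 11.6 kb, and the STK24 peak of shCtrl at 40 min, 73.0 kb, is off the axis.

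Several other kinase genes had calls past their own end in a neighbour on the opposite strand, and only some of these calls stood still. At all 4 times the peak lay beyond the gene end in 11 genes of shCtrl (12.5%, all listed genes 11.1%) and 10 of shTHOC5 (11.4%, all listed genes 11.2%), and the same 10 did so in both series (11.4%, all listed genes 9.10%): MAP3K2, CDKL1, CAMK2B, CAMK2G, CDKL4, MAP2K1, MAP3K19, NEK4, NEK5 and NEK6. MAP2K1, a kinase in the middle tier of the cascade, had the highest coverage of all 88 genes, 1601 rpm in shCtrl and 1327 rpm in shTHOC5. Its peaks, at 116.0 to 117.5 kb in shCtrl and 115.5 to 119.0 kb in shTHOC5, lie beyond its end of 104.8 kb and inside RPL4, a ribosomal protein gene, with the snoRNA genes SNORD16, SNORD18A or SNORD18B within 500 bases in 6 of the 8 libraries. The shTHOC5 call at 10 min also lies in ZWILCH, on the same strand as MAP2K1, 0.927 kb from the ZWILCH start. NEK4 peaks stood at 81.3 to 82.7 kb and 80.8 to 83.2 kb, all inside GNL3, and SNORD19 is within 500 bases of 5 of the 8. NEK5 peaks lie in ALG11, NEK6 peaks in PSMB7 and MAP3K19 peaks in CCNT2, and their called positions changed between times. Some of these calls stood at the window end, 120 kb. For NEK6 they were those of 20 min in shCtrl and of 20 and 30 min in shTHOC5. For MAP3K19 they were those of 10, 20 and 30 min in shCtrl and of 10 and 20 min in shTHOC5. Counted from the ALG11 start, NEK5 peaks stood at 3.48, 8.05, 8.32 and 7.76 kb in shCtrl. In shTHOC5 they stood at 2.86, 5.81, 9.27 and 11.3 kb. CAMK2B and CDKL4 stood at the window end, 120 kb, in every library. Whether the coverage was read by strand is not given in the sources used here. The deposited rates of MAP2K1, 2.35 and 2.32 kb/min, and of NEK4, 1.66 and 1.64 kb/min, are hence slopes to a standing point.

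Among genes with peaks inside their own body, STK24, a STE20 kinase of the Hippo-related STRIPAK network, had 5.97, 10.0, 11.0 and 73.8 kb in shCtrl and 1.99, 7.31, 9.09 and 11.0 kb in shTHOC5. The shTHOC5 peak was nearer the TSS at all 4 times, with differences of -3.98, -2.71, -1.92 and -62.8 kb. The deposited rate was 1.57 kb/min in shCtrl and 0.331 kb/min in shTHOC5. The 73.8 kb peak lies in an STK24 intron with no other annotated gene.

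ROCK1, a kinase of the cytoskeleton, had 1.32, 3.38, 9.45 and 52.2 kb in shCtrl and 2.85, 5.29, 7.01 and 9.85 kb in shTHOC5. STK38L, an NDR kinase, had -2.0, 1.16, 5.32 and 58.3 kb in shCtrl and -2.0, 2.81, 4.66 and 6.01 kb in shTHOC5. Both genes thus had the farther shTHOC5 peak at 20 min and the much nearer one at 40 min. Their deposited rates were 1.16 and 0.279 kb/min for ROCK1 and 1.28 and 0.227 kb/min for STK38L. STK24, STK38L and ROCK1 had the lowest shTHOC5 rates relative to shCtrl of the 12 genes in order in both series, and in all 3 the shCtrl peak stepped on by over 40 kb from 30 to 40 min.

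STK35, a nuclear kinase, had 5.24, 8.57, 26.8 and 27.0 kb in shCtrl and -2.0, 6.25, 8.49 and 10.8 kb in shTHOC5, nearer the TSS at all 4 times, with rates of 0.796 and 0.362 kb/min. HIPK3, a homeodomain-interacting kinase, had the opposite late step: -2.0, 5.10, 7.78 and 10.0 kb in shCtrl and -0.19, 1.56, 7.68 and 28.3 kb in shTHOC5, with rates of 0.339 and 0.685 kb/min. NEK7, a mitotic kinase that also acts in the inflammasome, had -2.0, 0.89, 1.69 and 2.74 kb in shCtrl and -2.0, 2.76, 4.03 and 4.95 kb in shTHOC5. EPHA4, an ephrin receptor, had 3.07, 4.74, 6.68 and 7.32 kb in shCtrl and 2.58, 5.94, 7.27 and 8.08 kb in shTHOC5. NEK7 and EPHA4 peaks were farther from the TSS in shTHOC5 from 20 min on, with rates of 0.132 and 0.199 kb/min and of 0.223 and 0.249 kb/min.

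Over the 12 genes the median ratio of the rates, shTHOC5 to shCtrl, was 0.965, and 8 of 12 were lower in shTHOC5 (66.7%, all listed genes 70.3%). Over the 424 listed genes it was 0.938. Past 1.2-fold, 4 kinase genes were lower (33.3%, all listed genes 32.1%) and 2 were higher (16.7%, all listed genes 9.91%). Without the 3 genes that took a step of over 40 kb, the median over 9 genes was 0.991.

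**Figure D4:**
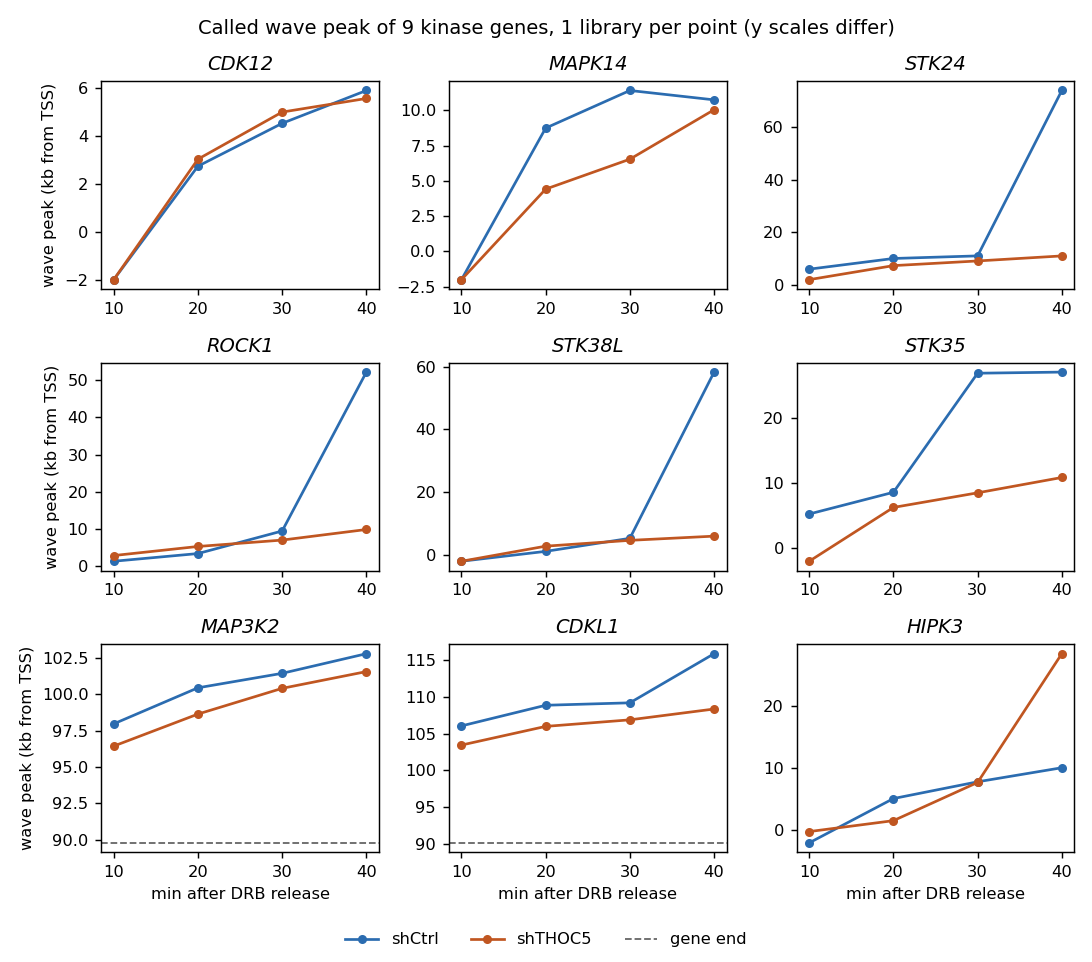
Wave peak (y axis, kb from the TSS, scale set for each gene) against min after DRB release (x axis) for 9 kinase genes in shCtrl (blue) and shTHOC5 (orange), 1 library per point, with the gene end dashed where it is near. The CDK12 courses nearly coincide, the STK24, ROCK1 and STK38L courses part at 40 min, where shCtrl reached 73.8, 52.2 and 58.3 kb, and the MAP3K2 and CDKL1 points lie past the gene end.

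The cyclin-dependent kinases with roles at Pol II did not share a course. CDK12 peaks stood at -2.0, 2.73, 4.51 and 5.88 kb in shCtrl and at -2.0, 3.02, 4.98 and 5.55 kb in shTHOC5, so the series differed by at most 0.469 kb and the rates, 0.223 and 0.221 kb/min, were nearly equal. CDK13, its closest paralog, stood at the window start at all 4 times in shCtrl and at -2.0, -2.0, 6.95 and 9.73 kb in shTHOC5. That window start lies in an exon of CDK13-DT, a divergent noncoding gene on the opposite strand. CDK8 peaks were 3.26, 4.87, 8.47 and 8.53 kb in shCtrl and -0.28, 5.84, 7.82 and 8.06 kb in shTHOC5, with rates of 0.263 and 0.282 kb/min.

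CDK19, the CDK8 paralog, stayed near or before the TSS, at -2.0, -2.0, -1.61 and 0.346 kb in shCtrl and -2.0, -2.0, -2.0 and 0.206 kb in shTHOC5. CDK17, a PCTAIRE kinase, was in order in shTHOC5 only, at 1.76, 6.14, 7.45 and 7.92 kb, against 1.80, 6.79, 4.90 and 10.6 kb in shCtrl. CDK6, which drives cells from G1 into S phase, had 1.94, 5.17, 6.95 and 7.66 kb in shTHOC5 and 1.79, 1.66, 0.905 and 9.16 kb in shCtrl.

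The 28 genes in order in shTHOC5 only came from every group: 8 of the MAP kinase cascade (MAP3K1, MAP3K7, MAP3K20, MAP4K3, MAP4K5, MAPK8, MAPK14 and TAOK1), 5 of the CaM and MARK kinases (CAMK2G, CAMK4, MARK1, MARK2 and MARK3), 5 of the STK and LATS kinases (LATS2, STK4, STK10, STK17A and STK39), 5 of the PRK, ROCK and RPS6K kinases (PRKCI, PRKD3, ROCK2, RPS6KA3 and RPS6KA5), CDK6, CDK17, CSNK2A1, FGFR2 and WNK1. Their median peaks in shTHOC5 were -2.0, 4.10, 6.80 and 9.44 kb. In shCtrl their medians were 6.20, 5.85, 11.2 and 9.70 kb. Over 40 kb from the TSS there were 11, 5, 11 and 3 of these genes in the 4 shCtrl libraries and 1, 1, 1 and 7 in the shTHOC5 libraries. Since in order was what chose them, these positions are a description.

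MAPK14, the stress kinase p38 alpha, had -2.0, 8.74, 11.4 and 10.7 kb in shCtrl and -2.0, 4.42, 6.54 and 10.0 kb in shTHOC5. MAPK8, which encodes JNK, had 5.75, 5.31, 7.64 and 6.40 kb in shCtrl and 0.148, 6.16, 7.84 and 9.48 kb in shTHOC5. MAP2K4, the activator of JNK and p38, had 0.492, 6.48, 6.72 and 65.1 kb in shCtrl and 0.788, 5.80, 6.86 and 6.76 kb in shTHOC5. The last shTHOC5 step, from 30 to 40 min, was -0.104 kb.

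MARK2, a kinase of cell polarity, had 106.1, 7.75, 109.3 and 9.16 kb in shCtrl and 2.42, 6.14, 7.18 and 7.83 kb in shTHOC5. The shCtrl peaks of 10 and 30 min lie in the same-strand neighbour NAA40, at 6.11 and 9.23 kb from its start, and the other 6 lie in MARK2 introns. MARK4, the gene of its group with the highest coverage, had 0.921, 8.10, 5.76 and 5.75 kb in shCtrl and -2.0, 17.7, 18.0 and 17.4 kb in shTHOC5. The nearest RefSeq start of MARK4 is 171983 bases downstream of its GENCODE start, beyond the window end at 120 kb. The MARK4 window and peaks thus lie before that RefSeq start, and which transcript they follow was not tested. WNK1, a chloride-sensing kinase of ion transport, had 5.57, 3.18, 11.0 and 12.3 kb in shCtrl and -2.0, 5.35, 8.42 and 9.57 kb in shTHOC5, with rates of 0.340 and 0.336 kb/min. DYRK1A, a kinase encoded in the Down syndrome region, had 67.9 kb at 10 min and then 10.3, 11.6 and 12.9 kb in shCtrl, and 4.34, 10.6, 13.2 and 12.7 kb in shTHOC5. FGFR1, a growth factor receptor, had 19.9, 7.98, 11.8 and 15.8 kb in shCtrl and 87.4, 5.44, 8.04 and 10.7 kb in shTHOC5, and its 87.4 kb peak lies 0.788 kb past the start of the same-strand gene NSD3.

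Of the 46 genes in order in neither series, 8 stood at the window start at all times in at least 1 series: CDK13, CDKL3, EPHA7, MAP3K4, PRKCQ, PRKDC, TAOK3 and WNK3. CDKL3 and TAOK3 did so in both. That made 4 in shCtrl (4.55%, all listed genes 9.76%) and 6 in shTHOC5 (6.82%, all listed genes 11.7%). Another 7 lay beyond the gene end throughout, and 4, CDK15, CSNKA2IP, NEK10 and STK32A, had a mean coverage under 10 rpm. The other 27 had a peak that stood still or went back at least once in each series. The calls of MAPK6, an atypical MAP kinase, went back in both, from 17.0 through 16.6 and 15.3 to 14.0 kb in shCtrl and from 17.9 through 15.7 and 13.6 to 3.57 kb in shTHOC5. The nearest RefSeq start of MAPK6 is 67113 bases downstream of its GENCODE start, so all these calls lie before that RefSeq start.

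In shTHOC5 the steps between peaks of the 40 genes in order had medians of 4.60 kb from 10 to 20 min, 1.82 kb from 20 to 30 min and 1.71 kb from 30 to 40 min. Those of all listed genes in order there were 3.63, 1.89 and 1.91 kb. In shCtrl the 14 genes had medians of 3.02, 1.39 and 1.81 kb, against 3.34, 1.89 and 2.54 kb. Among genes in order whose last peak was within 40 kb, the deposited rate had a median of 0.273 kb/min over 8 kinase genes in shCtrl and 0.271 kb/min over 31 in shTHOC5, against 0.302 and 0.279 kb/min over all such listed genes.

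Labelled RNA of the kinase genes had a higher median than that of all listed genes, and its share of the shTHOC5 series was higher in more of them than lower. The median coverage was 166 rpm in shCtrl and 223 rpm in shTHOC5, against 110 and 132 rpm over all listed genes. The kinase genes were also wider, with a median of 131 kb against 108 kb, and whether width bears on their coverage was not tested. The mean of both series reached 10 rpm in 84 of the 88 genes (95.5%, all listed genes 88.5%), and 59 (67.0%, all listed genes 50.0%) had at least 100 rpm in both. Over the 84 genes the median log2 ratio of shTHOC5 to shCtrl coverage, with 1 rpm added to each, was 0.25, against 0.15 over all 4064 listed genes past 10 rpm. Past 1.5-fold, 29 genes were higher (34.5%, all listed genes 27.1%) and 8 were lower (9.52%, all listed genes 12.6%). Since each series is scaled to its own total, these are shares and not absolute amounts.

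Among genes that reached 100 rpm in each series, STK38L had the highest ratio, 103 rpm in shCtrl and 249 rpm in shTHOC5 (log2 ratio 1.26). CSNK1G3, a membrane-bound casein kinase, had 106 and 239 rpm (1.17), and MAP4K3, an activator of amino acid signalling to mTORC1, had 113 and 253 rpm (1.15). At the other end WNK2 had 240 and 112 rpm (-1.10), PRKDC, the catalytic subunit of the DNA repair kinase DNA-PK, had 1261 and 659 rpm (-0.94), and NEK6, a mitotic kinase, had 727 and 421 rpm (-0.79). The NEK6 peaks lie in PSMB7, and how the gene's coverage divides over the window was not tested. PRKDC stood at the window start in all libraries but that of shCtrl at 10 min, where the call was at the window end.

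Coverage differed little between the series in CDK12, with 726 and 736 rpm, in MAP3K2, with 356 and 387 rpm, in STK24, with 408 and 378 rpm, and in WNK1, with 983 and 995 rpm. By group, the median log2 ratio was highest in the cyclin-dependent and CDK-like kinases, 0.61, with 5 higher (50.0%, all listed genes 27.1%) and none lower (all listed genes 12.6%) past 1.5-fold among 10 genes past 10 rpm. It was lowest in the CaM and MARK kinases, -0.35 over 9 genes, with 2 higher (22.2%) and none lower. In the 25 genes of the MAP kinase cascade it was 0.33, with 8 higher (32.0%), a share near that of all listed genes, and MAP2K6 lower (4.00%), at 103 and 37.8 rpm.

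**Figure D5:**
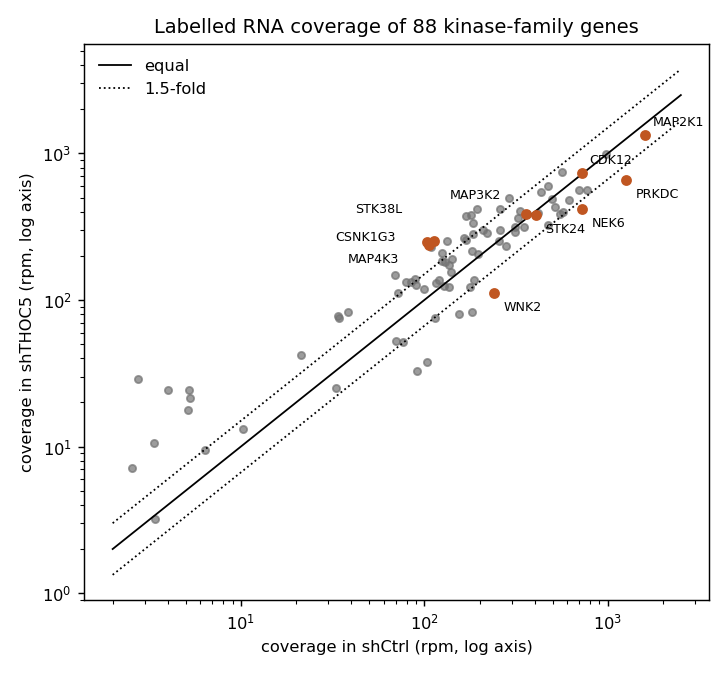
Coverage of the 88 genes in shCtrl (x axis, rpm) and shTHOC5 (y axis, rpm), both on log axes, 1 point per gene, with the line of equality and dotted lines at 1.5-fold. STK38L, CSNK1G3 and MAP4K3 lie above the upper line and WNK2, PRKDC and NEK6 below the lower line, while MAP2K1, at 1601 and 1327 rpm, lies near equality.

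A list of 98 further listed protein kinases outside the name pattern, such as the receptor and SRC-type tyrosine kinases, was read beside the 88 genes. Its peaks were in order in 13 genes of shCtrl (13.3%) and 39 of shTHOC5 (39.8%), and 33 (33.7%) were in order in shTHOC5 only. Its median coverage was 130 and 148 rpm, the median log2 ratio over 90 genes was 0.25, and past 1.5-fold 22 were higher (24.4%) and 5 were lower (5.56%). Of 27 listed signalling partners, among them RAS regulators, adaptors and cyclins, 7 were in order in shCtrl (25.9%) and 19 in shTHOC5 (70.4%), 10 were higher in coverage past 1.5-fold (37.0%) and 1 was lower (3.70%). The lists share RAF and KSR genes.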

How the data were processed

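Wave peaks and rates came from 8 DRB/TTchem-seq libraries of HEK293 cells, 1 per hairpin and release time. The authors deposited 1 table per series, with wave peaks in bp from the window start, rates in kb/min, a filter mark and a coverage column. This deposited coverage is named for RPKM but sums to 1000000 and was read as RPM. How the RPM of a series was combined from its libraries, and which aligner was used for them, is not given in the sources used here. GRCh38 and the tools Bowtie2 2.3.4.1 and deepTools 2.0 stand in the submitters' processing notes, and by the study's methods served the ChIP-seq reads. Reads per library, and thus the precision they give, are unknown.

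Genes were matched to GENCODE release 44 (4590 of 4592 identifiers, 4416 with the listed width). Peaks were placed on the genome for the 77 kinase genes with that width, and not for the other 11. Rates were refitted and equalled the deposited ones within 2e-05 kb/min for all 4592 genes in both series. Coverage ratios used a pseudocount of 1 rpm and a mean of at least 10 rpm. Genes given in detail were MAP3K2 and STK24, those kept in both series, the listed CDK12, CDK13, CDK8, CDK19 and CDK17, the 3 highest and 3 lowest coverage ratios at 100 rpm or more in both, the 3 lowest and 3 highest rate ratios, the highest-coverage gene of each group, and the gene that is no kinase. Genes named beyond these were chosen after their values were seen. The members and lists were chosen with earlier results of these data known. No single time could be tested with 1 library per condition. Over the 4 times, wave peaks in kb were fitted across all 4592 genes with limma, with the release time as a block, and p-values were adjusted by Benjamini-Hochberg, a test added after seeing the data. The Nanopore and ChIP-seq samples were not analysed here. The functions were tested on simulated data. Some items of these groups are not reported here. Promoters came from RefSeq (GRCh38.p14). Python 3.11.15, numpy 2.4.6, pandas 2.3.3, scipy 1.17.1 and matplotlib 3.10.9, with R 4.3.3 and limma 3.58.1, were used.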

Additional observations from a re-analysis of the deposited data

How the results depend on the processing

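In the limma fit over the 4 times, paired by release time, 0 of the 88 genes passed, and 0 passed with no replicate block, on the log2 scale (1 kb added to the distance from the window start) and without the 10, 20 or 30 min time. Without the 40 min time 1 passed, PRKD3 (-91.0 kb, adjusted p = 0.0314), whose shCtrl calls at the other times lie past its own gene end. These fits were added after seeing the data. Of 62 recomputed values, 52 stayed within a set range of the reported value, 10 moved and 0 reversed. The range was 1.5 times for counts and the 95% interval over genes for shares and medians, which covers the spread between genes only. Only a median could be labelled as reversed. The intervals over 12 genes were wide: that of the 40 min difference, -0.849 kb, ran from -42.3 to 0.76 kb, so a mean of -13.5 kb stayed within it.

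The count in order in shCtrl, 14, became 30 with ties allowed and 27, 23 or 25 without the 10, 20 or 30 min time, and the cause was not tested beyond the fewer conditions that these settings ask for. The count in shTHOC5 stayed within 1.5 times of 40 under the same settings, at 60 with ties allowed. The filter rebuilt from order, coverage of 100 rpm and a first peak 2 kb past the window start gave 8 kept genes in shCtrl against 5 marked, so the rebuilt thresholds are not the ones the authors applied. The share nearer the TSS in shTHOC5 at 20 min, 46.6%, became 35.2% with a difference of at least 1 kb and 62.3% over the 61 genes past the window start in both series. With at least 1 kb it became 43.2% at 30 min and 37.5% at 40 min, which counts fewer genes by construction.

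The median rate ratio lay between 0.689 (ratio of mean rates) and 0.991, and was 0.822 with slopes over the 4 times alone. The median log2 coverage ratio lay between 0.11, centred on all listed genes, and 0.27. For the rate ratio, the alternatives of peaks inside the own gene, 0.916, and of no step over 40 kb, and those that leave out genes called past their end or the gene that is no kinase were chosen after seeing the data.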
